A study of Mus musculus with 8 samples.

Results

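Glutathione transferases, UDP-glucuronosyltransferases and sulfotransferases are the liver's main conjugation enzymes. They were collected here by gene symbol: glutathione transferases of the alpha, kappa, mu, omega, pi and theta classes (Gsta, Gstk, Gstm, Gsto, Gstp and Gstt), microsomal glutathione transferases (Mgst), glucuronosyltransferases of families 1, 2 and 3 (Ugt) and sulfotransferases of families 1 to 5 (Sult), without pseudogenes. Of 62 matching symbols, 54 had at least 10 normalized reads in at least 4 libraries, out of 14390 genes that passed this filter. These 54 members were 19 cytosolic glutathione transferases, 2 microsomal ones, 17 glucuronosyltransferases and 16 sulfotransferases. The group called cytosolic here includes the kappa-class Gstk1, which is an enzyme of mitochondria and peroxisomes.

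RNA was sequenced from the livers of 8 female mice, 4 in each of 2 groups, and all 8 animals were wild type in genotype. WT animals were labelled as wild type with no ancestry named, whereas F2_outcross animals had a maternal grandmother that was null for Khdc3, which is known for its role in oocytes. The design sets hepatic RNA of genetically normal females with that ancestry against hepatic RNA of females whose label does not name it. The sources used here give no strain, age, litter, dam or sequencing batch, so p-values measure the spread between these animals only.

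A conjugation enzyme joins a small polar group to a drug, hormone, bile acid or reactive by-product, which makes the product easier to excrete in bile or urine. Glutathione transferases use glutathione, glucuronosyltransferases use UDP-glucuronic acid, and sulfotransferases use the sulfate donor PAPS. In rodents many of these genes are known to differ between the sexes and between the zones of the liver lobule, and several respond to the xenobiotic receptors PXR, CAR and AHR or to the oxidant sensor NRF2.

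Each library held 28028650 to 35843972 reads assigned to genes of the deposited table. Khdc3 itself had 1 read in WT replicate 1 and 0 in the other 7 libraries. As all 8 animals were wild type in genotype, Khdc3 RNA could not check the ancestry label at any level. The labels name hepatocytes as the cell type, and the summed reads of 10 hepatocyte markers were 3556300 to 4869700 in WT and 3536800 to 4406600 in F2_outcross. All 8 Kupffer cell and macrophage markers, all 8 endothelial markers and all 8 stellate cell markers also passed the filter, so the libraries held RNA of cells other than hepatocytes as well. WT replicate 2 stood apart from the other WT libraries: 383 genes passed the test with all libraries (230 higher and 153 lower in F2_outcross), and 1073 passed without it. With upper quartile scaling the split was 198 higher and 208 lower.

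By level per kilobase of exonic length, the members were dominated by a few enzymes. Gstp3, a pi-class glutathione transferase, led with 35161 normalized reads per kilobase (mean of 8 libraries) and took 15.2% of the members' summed level. Sult3a1, an amine sulfotransferase of mouse liver, followed at 32801, Mgst1, the membrane-bound glutathione transferase of the endoplasmic reticulum and mitochondria, at 32184, and Gstm1, a mu-class transferase, at 19580. These 4 genes made up 51.6% of the summed level. Exonic length was counted over all annotated exons of a gene, so this order and share depend on the annotation. The alpha-class Gsta3, counted at 4344 bases, had mean reads of 36450 in WT and 43595 in F2_outcross. Those exceeded the means of Gstp3 (33673 and 30179) and Gstm1 (30050 and 27631), yet Gsta3 ranked below both per kilobase. Among the glucuronosyltransferases the most abundant was Ugt2b36 at 8792 reads per kilobase, so no glucuronosyltransferase came near the leaders of the other classes.

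Summed per kilobase, no class separated the groups. The cytosolic glutathione transferases summed to 82273, 119412, 78356 and 78665 in WT replicates 1 to 4 and to 81776, 93905, 79399 and 86527 in F2_outcross replicates 1 to 4. WT replicate 2 was the highest library and the groups overlapped, with a ratio of F2_outcross to WT of 0.952. The glucuronosyltransferases summed to 40385 ± 4076 in WT (mean ± SD, n = 4 in each group) and to 43404 ± 2775 in F2_outcross, a ratio of 1.07. The microsomal transferases had 32661 ± 4398 and 32695 ± 3117, a ratio of 1.00, with Mgst1 alone making up 98.5% of that class. The sulfotransferases had 72616 ± 19265 and 66849 ± 18762, a ratio of 0.921. Their spread within each group was wide, from 53093 to 90598 in WT and from 47507 to 89409 in F2_outcross, and followed Sult3a1, which held 47.0% of the class. Every difference between groups was smaller than the SD within a group, apart from the glucuronosyltransferases, where the difference exceeded the F2_outcross SD but not the WT SD. In bulk liver, fewer cells of a type and less RNA per cell cannot be told apart.

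**Figure D1:**
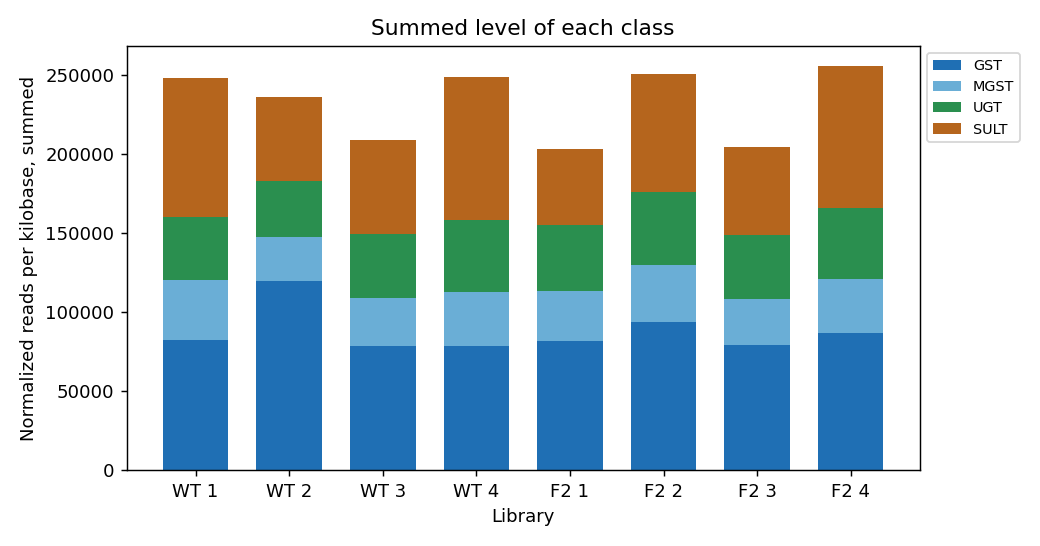
Summed level of each class (normalized reads per kilobase of exonic length, stacked bars) in each of the 8 libraries. The class totals overlap between groups, and the cytosolic glutathione transferases are highest in WT replicate 2 at 119412.

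Gene by gene, 1 of the 54 members passed limma's test (adjusted p under 0.05 over all genes), which is 1.85% of them against 2.66% of all genes tested. The member that passed was Ugt2b37, and it was higher in F2_outcross, where 1.60% of all genes were called higher and 1.06% lower. Without WT replicate 2, 4 of the 54 members passed (Ugt2b37, Sult5a1, Gstt3 and Ugt1a5, all higher), beside 7.46% of all genes. In 6 members (11.1%) the 4 values of F2_outcross all lay above the 4 of WT, and in none did they all lie below. Over all genes, 12.0% had groups that did not overlap, 6.50% with F2_outcross higher and 5.45% with it lower. Counted without regard to direction, the members were thus close to the background. At an unadjusted p under 0.05 there were 9 members higher and 2 lower, 20.4% of members beside 21.1% of all genes. Over all 14390 genes the split at that level was 1444 higher and 1589 lower. By direction the members thus leaned to higher in F2_outcross more than all genes did, and that lean was not tested.

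**Figure D2:**
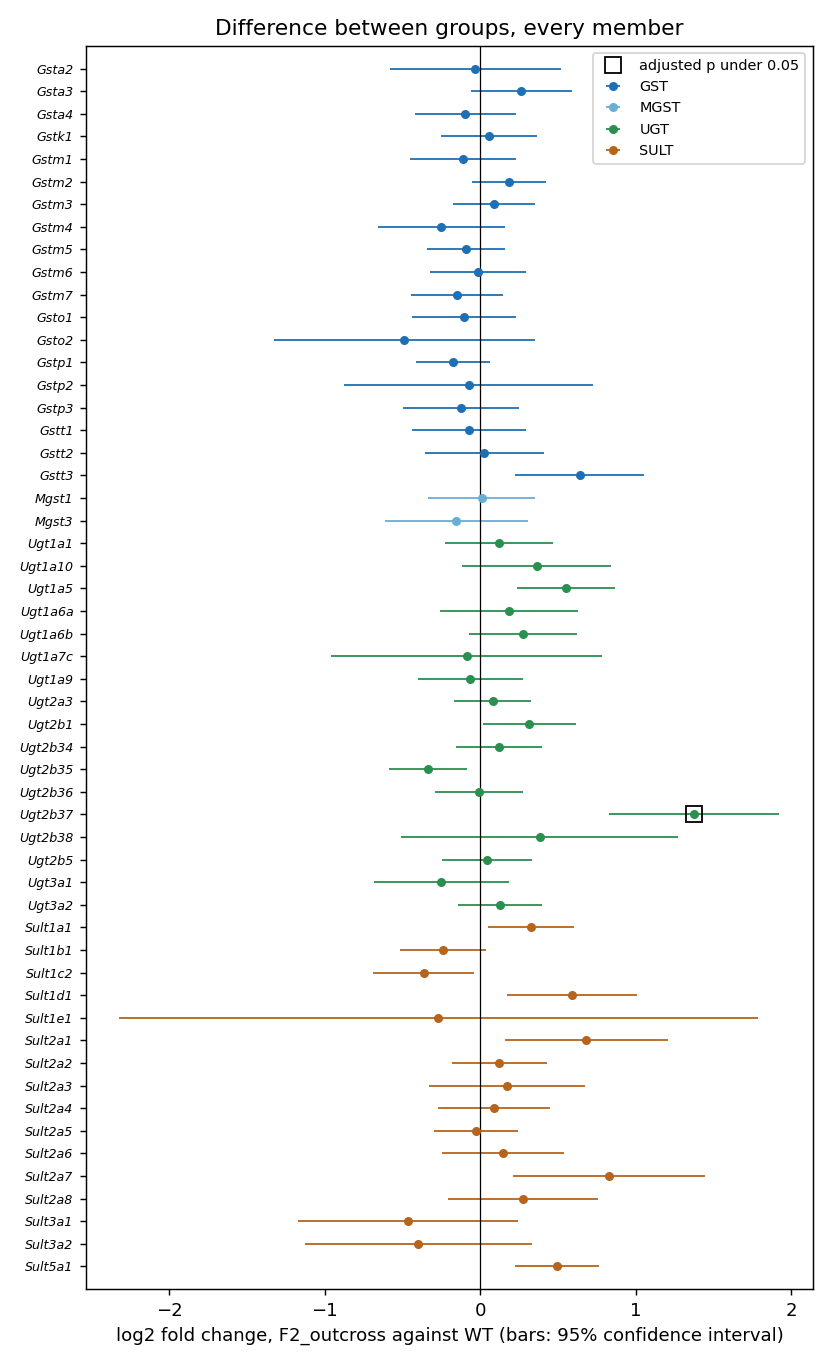
Log2 fold change of F2_outcross against WT for each of the 54 members (points, coloured by class) with its 95% confidence interval from limma (bars). Ugt2b37, at 1.38, is the single member past the threshold of 0.05 (square), and the widest interval belongs to Sult1e1.

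The classes differed in which way their members leaned, without a test of that lean. Of the 17 glucuronosyltransferases 12 had a positive log2 fold change, with a median of 0.12, and of the 16 sulfotransferases 10 were positive, with a median of 0.14. Those counts were the same under upper quartile scaling, quantile scaling and scaling to total reads. Leaving out a library gave 11 to 15 positive glucuronosyltransferases. Without WT replicate 3 the sulfotransferases were 8 positive and 8 negative, with a median of 0.02, so their lean rested on that library. Of the 19 cytosolic glutathione transferases 6 were positive and 13 negative, with a median of -0.07, and this was 5, 8 and 6 positive under the same scalings. The median over all genes was -0.01. The lean of the glutathione transferases likewise rested on WT replicate 2: without it 13 were positive and 6 negative, with a median of 0.06.

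**Figure D3:**
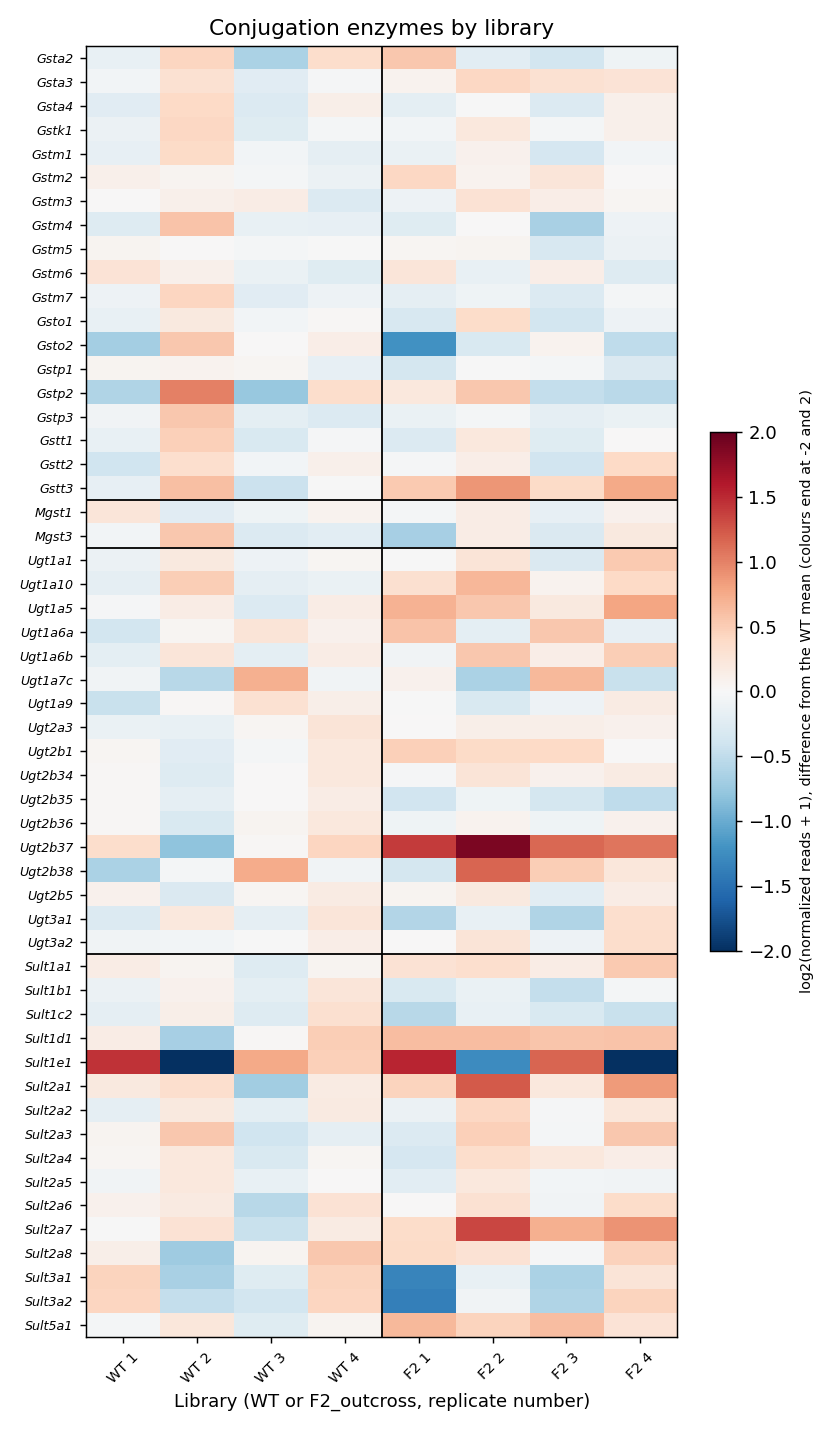
Each member (a line of the plot, grouped by class) in each library (columns), as the difference of log2(normalized reads + 1) from the WT mean, with colours ending at -2 and 2. Ugt2b37 is raised in all 4 F2_outcross libraries, WT replicate 2 is high over most of the glutathione transferases, and Sult1e1 varies widely within both groups.

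Ugt2b37 is a glucuronosyltransferase of the Ugt2b cluster on chromosome 5 (GRCm38 chr5:87240493-87254804, minus strand). It had 897, 399, 716 and 943 normalized reads in WT replicates 1 to 4 and 1848, 2602, 1557 and 1479 in F2_outcross replicates 1 to 4. Every F2_outcross library was above every WT library, and WT replicate 2 was the lowest. The mean was 2.53-fold higher in F2_outcross, a log2 fold change of 1.38 ± 0.25 (SE, n = 4 per group; limma adjusted p = 0.0181), with a 95% interval of 0.83 to 1.93. The call did not hold without WT replicate 3 (adjusted p = 0.0517), without F2_outcross replicate 2 (adjusted p = 0.0550) or with robust moderation (adjusted p = 0.0506). Without WT replicate 2 the log2 fold change was 1.11 and the adjusted p 0.00992.

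Neighbouring glucuronosyltransferases did not pass the test. On chromosome 5, 8 Ugt2 genes and 3 Sult1 genes lay within chr5:86889767-87591594, and their log2 fold changes ran from -0.33 to 1.38. Ugt2b36, the most abundant glucuronosyltransferase, had 18378, 14654, 18771 and 20958 reads in WT and 17002, 18891, 17034 and 19141 in F2_outcross, which overlapped with a mean ratio of 0.990. Set against Ugt2b36 within each library, the reads of Ugt2b37 gave a ratio of 0.0398 ± 0.0095 in WT (mean ± SD) and of 0.104 ± 0.026 in F2_outcross. Its share of the summed Ugt2 level per kilobase was 1.25 ± 0.31% in WT and 2.98 ± 0.65% in F2_outcross. Ugt2b37 thus stayed a minor member of its family in both groups.

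Among the other Ugt2 genes of the stretch, those with the smallest p after Ugt2b37 had log2 fold changes of opposite sign. Ugt2b1 had 14373, 11970, 13619 and 16122 reads in WT and 19355, 18176, 18454 and 14035 in F2_outcross, a log2 fold change of 0.32 ± 0.14 (limma adjusted p = 0.212). Ugt2b35 had 5095, 4385, 5040 and 5519 in WT and 3844, 4707, 3911 and 3494 in F2_outcross, a log2 fold change of -0.33 ± 0.12 (limma adjusted p = 0.131). In both genes a single F2_outcross library lay within the WT range. Between Ugt2b5 and Ugt2b37 lies the unprocessed pseudogene Gm5717 (chr5:87162279-87175290), which was looked up after its values were seen. It had 8.57, 2.02, 5.22 and 10.1 reads in WT and 33.4, 26.8, 42.5 and 12.7 in F2_outcross, also without overlap (log2 fold change 2.04 ± 0.48, limma adjusted p = 0.0466, and past the threshold in 2 of the 8 fits that left out a library). In WT only replicate 4 reached 10 reads, so Gm5717 passed the filter through the group where it was high. Its call and its lack of overlap are therefore no support for the difference in Ugt2b37. The transcript of Gm5717 was closest to that of Ugt2b35, at 86.3% identity over 869 of 1062 bases.

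The promoters of Ugt2b37 and its 3 nearest relatives by promoter sequence are shown, because they are alike to differing degrees while the genes' values differed. They come from RefSeq on GRCm38.p6, all on the minus strand, with 250 bases before and 50 after the annotated start, and capitals mark AGGTCA, the core hexamer bound by many nuclear receptors.
Ugt2b37 (chr5:87254739-87255038): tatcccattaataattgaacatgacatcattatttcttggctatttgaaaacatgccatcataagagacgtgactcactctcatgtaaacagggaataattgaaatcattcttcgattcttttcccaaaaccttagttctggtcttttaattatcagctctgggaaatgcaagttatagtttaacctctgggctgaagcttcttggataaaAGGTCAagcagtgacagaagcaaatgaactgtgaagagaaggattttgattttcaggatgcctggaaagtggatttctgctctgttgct
Ugt2b38 (chr5:87424154-87424453): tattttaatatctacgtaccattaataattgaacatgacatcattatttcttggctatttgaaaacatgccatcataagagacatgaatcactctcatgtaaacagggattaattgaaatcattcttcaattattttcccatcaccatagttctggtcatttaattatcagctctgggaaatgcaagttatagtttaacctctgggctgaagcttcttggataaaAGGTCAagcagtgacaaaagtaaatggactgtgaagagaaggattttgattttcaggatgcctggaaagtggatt
Ugt2b5 (chr5:87140291-87140590): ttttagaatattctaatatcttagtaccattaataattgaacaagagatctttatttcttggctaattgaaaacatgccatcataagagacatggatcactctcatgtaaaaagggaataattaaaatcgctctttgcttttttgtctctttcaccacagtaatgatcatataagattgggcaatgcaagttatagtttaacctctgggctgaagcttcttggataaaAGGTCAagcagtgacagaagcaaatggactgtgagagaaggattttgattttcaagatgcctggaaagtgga
Ugt2b36 (chr5:87092506-87092805): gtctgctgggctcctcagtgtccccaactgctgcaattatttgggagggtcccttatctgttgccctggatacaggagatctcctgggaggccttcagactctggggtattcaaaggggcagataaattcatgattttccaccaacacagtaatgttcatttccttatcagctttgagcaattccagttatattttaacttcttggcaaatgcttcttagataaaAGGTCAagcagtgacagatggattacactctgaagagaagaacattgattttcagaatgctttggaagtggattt
The hexamer starts 39 bases before the annotated start in Ugt2b37, 25 in Ugt2b38, 22 in Ugt2b5 and 25 in Ugt2b36, in the same flanking letters. Aligned over their length, the promoter of Ugt2b37 shared 91.0% of its bases with that of Ugt2b38, 82.3% with Ugt2b5 and 66.0% with Ugt2b36. With the other Ugt2 promoters the same alignment gave 54.7% (Ugt2a3 and Ugt2b1), 55.0% (Ugt2b34) and 59.7% (Ugt2b35). The value for Ugt2b36 was thus nearer to these than to that of Ugt2b38. Ugt2b38 was near the limit of detection, with 7.01, 11.1, 19.8 and 10.9 reads in WT and 8.78, 26.9, 16.5 and 13.7 in F2_outcross. Ugt2b5 was abundant and its groups overlapped, at 11496 ± 1488 reads in WT and 11854 ± 1434 in F2_outcross. The 4 genes that share the hexamer thus had different values, and the presence of these letters is a description of the window only. The transcripts of Ugt2b37 and Ugt2b38 are 93.2% identical, and those of Ugt2b38 and the abundant Ugt2b5 are 95.5% identical. Reads may have been assigned among these genes in ways the sources used here do not give.

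RefSeq promoters were found for 47 of the 54 members, 57 promoters in all. AGGTCA, searched on both strands, was in 21.1% of these and in 16.3% of all 32851 promoters of the table. GTTAAT, letters bound by HNF1, was in 24.6% against 7.10%. GCGTG, the core of the xenobiotic response element, was in 17.5% against 32.4%, TGACNNNGC, the core of the antioxidant response element, in 7.02% against 12.4%, and TTCNNNGAA, the STAT5 letters, in 7.02% against 8.30%. AGGTCA and TGACNNNGC can overlap, and neighbouring members share sequence by descent, so the members' promoters are not independent.

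The Ugt1a genes of chromosome 1 share their last exons and differ in the first, and 50.3% to 60.6% of their exonic bases were shared, so reads of the common part cannot be placed in a single gene. Ugt1a5 had 465, 522, 392 and 527 normalized reads in WT and 765, 688, 543 and 818 in F2_outcross. All 4 F2_outcross values lay above the WT values, the lowest by a small margin. The log2 fold change was 0.55 ± 0.15 (limma adjusted p = 0.0643), and the gene passed the threshold without WT replicate 2 (adjusted p = 0.0420) and without F2_outcross replicate 3 (adjusted p = 0.0305). Ugt1a1, the bilirubin-conjugating enzyme and the most abundant of the Ugt1a genes, had 6535, 8110, 6604 and 7274 reads in WT and 7031, 8477, 5819 and 10256 in F2_outcross. Its groups overlapped, with a log2 fold change of 0.12 ± 0.16 (limma adjusted p = 0.709). Of the 7 Ugt1a members 5 had positive log2 fold changes and 0 passed the test.

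Ugt3a2 and Ugt3a1, whose human counterparts use sugars other than glucuronic acid, lie side by side on chromosome 15. Ugt3a2, the more abundant per kilobase, had 11869 ± 793 reads in WT and 13060 ± 1874 in F2_outcross, and Ugt3a1 had 1660 ± 296 and 1432 ± 469. Neither passed the test (limma adjusted p = 0.594 and 0.508), and both had overlapping groups.

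Of the 16 sulfotransferases 0 passed the test, while 4 had all F2_outcross values above all WT values, 25.0% of the class beside 6.50% of all genes. With 4 genes of 16 no test was made of that share, and nothing particular to the class is read from it. Sult5a1 had 1398, 1679, 1210 and 1486 reads in WT and 2242, 1960, 2203 and 1725 in F2_outcross. The highest WT library, replicate 2, lay just under the lowest F2_outcross library. Its log2 fold change was 0.50 ± 0.12 (limma adjusted p = 0.0555), and it passed the threshold without WT replicate 2 (adjusted p = 0.0202), without F2_outcross replicate 4 (adjusted p = 0.0431) and with robust moderation (adjusted p = 0.0493).

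Sult1d1, a catecholamine and eicosanoid sulfotransferase of rodents, had 6307, 3599, 5763 and 8045 reads in WT and 8743, 8752, 8355 and 8439 in F2_outcross. The F2_outcross libraries were nearly level, whereas WT spread widely with replicate 2 lowest. The log2 fold change was 0.59 ± 0.19 (limma adjusted p = 0.111), and without WT replicate 2 it was 0.37 (adjusted p = 0.0777). Sult1a1, the phenol sulfotransferase and the most abundant of the Sult1 genes, had 14753, 13777, 11058 and 13812 in WT and 16294, 16686, 14780 and 19018 in F2_outcross. The groups were separated by a margin smaller than the SD of either, with a log2 fold change of 0.32 ± 0.13 (limma adjusted p = 0.174). Sult1c2 leaned the other way, at 417 ± 79.0 reads in WT and 322 ± 40.2 in F2_outcross, a log2 fold change of -0.36 ± 0.15 (limma adjusted p = 0.192).

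**Figure D4:**
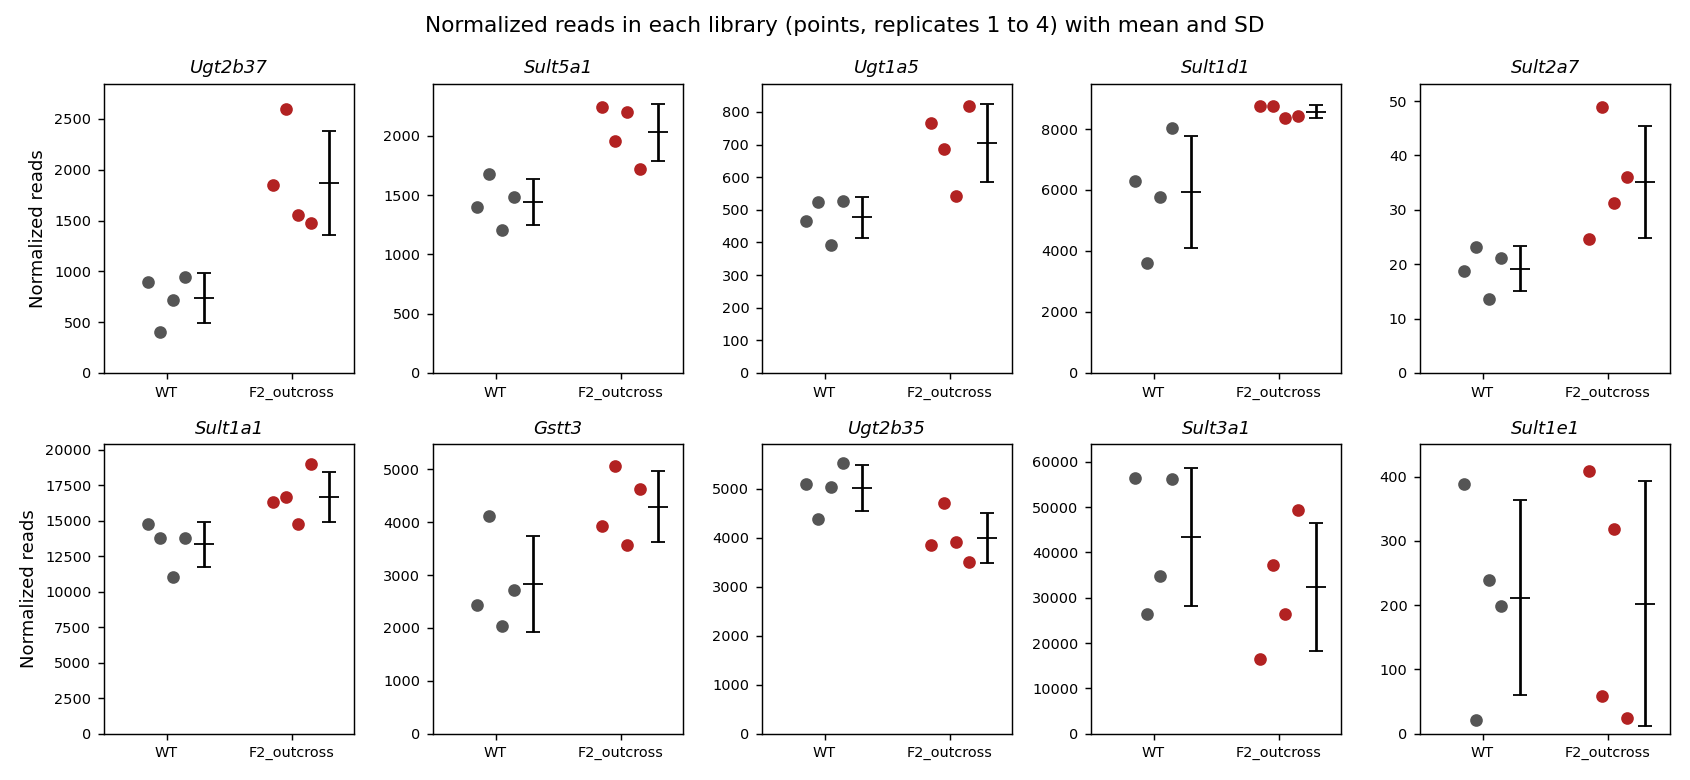
Normalized reads of 10 members in each library (points, replicates 1 to 4 from left to right in each group) with mean and SD (bars), on axes that start at 0. The first 6 genes have groups that do not overlap, Ugt2b37 by the widest margin, and the other 4 overlap.

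Sult1e1, the oestrogen sulfotransferase, varied most between animals. It had 389, 21.2, 239 and 198 reads in WT and 409, 58.5, 318 and 24.4 in F2_outcross, a 19.3-fold range between the highest and the lowest library. Low and high animals occurred in both groups, and the log2 fold change was -0.27 ± 0.94 (limma adjusted p = 0.900).

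The Sult2a genes encode hydroxysteroid and bile acid sulfotransferases and cluster on chromosome 7. Of the 8 members 7 had positive log2 fold changes, with a median of 0.16. Sult2a8, which in mouse sulfates bile acids and was the most abundant of them per kilobase, had 16488, 9336, 15920 and 22233 reads in WT and 19952, 18578, 15018 and 21035 in F2_outcross. Its groups overlapped, with WT replicate 2 lowest (log2 fold change 0.28 ± 0.22, limma adjusted p = 0.510). Sult2a7, a gene with few reads, had 18.7, 23.2, 13.6 and 21.1 in WT and 24.6, 48.9, 31.2 and 36.1 in F2_outcross. All F2_outcross values were above the WT values (log2 fold change 0.83 ± 0.28, limma adjusted p = 0.125). Sult2a1 had 1968 ± 541 reads in WT and 3162 ± 986 in F2_outcross, and its groups overlapped (log2 fold change 0.68 ± 0.24, limma adjusted p = 0.136). Its transcript is 94.5% identical over its whole length to that of Sult2a5, which had 531 ± 60.2 and 522 ± 66.0. The transcript of Sult2a2, with 3153 ± 469 and 3444 ± 576 reads, is 98.5% identical to that of Sult2a1 over an alignment of 70.9% of its bases. The split of reads among these genes is uncertain.

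Sult3a1 and Sult3a2 lie side by side on chromosome 10 and are expressed mainly in female mouse liver. Sult3a1 had 56355, 26373, 34757 and 56253 reads in WT and 16566, 37117, 26508 and 49415 in F2_outcross. Each group held both high and low animals, so a log2 fold change of -0.46 ± 0.33 did not pass (limma adjusted p = 0.448). The ratio of Sult3a1 to Sult3a2 was 3.97 to 4.93 over all 8 libraries, so both genes were high or low in the same animals. Their transcripts are 90.8% identical where they align, and how shared reads were assigned is not known from these sources.

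Of the 19 cytosolic glutathione transferases 0 passed the test and 0 had groups that did not overlap, and 1 had an unadjusted p under 0.05. That gene was Gstt3, a theta-class transferase, with 2432, 4118, 2034 and 2719 reads in WT and 3924, 5057, 3566 and 4635 in F2_outcross. WT replicate 2 lay among the F2_outcross values and the other 3 WT libraries below them. The log2 fold change was 0.64 ± 0.19 (limma adjusted p = 0.0898), and without WT replicate 2 it was 0.84 (adjusted p = 0.0102). Gstt3 passed in that fit alone of the 18 alternatives. In the other fits that left out a library its adjusted p was 0.0866 to 0.217.

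Gstt1, the next gene along chromosome 10 and the most abundant of the theta class, had 9565, 14712, 8587 and 10350 reads in WT and 8796, 12257, 8974 and 10610 in F2_outcross. Its groups overlapped (log2 fold change -0.07 ± 0.17, limma adjusted p = 0.847). In Gstt1 too WT replicate 2 was the highest library. The ratio of Gstt3 to Gstt1 within a library was 0.254, 0.280, 0.237 and 0.263 in WT and 0.446, 0.413, 0.397 and 0.437 in F2_outcross. On this ratio WT replicate 2 was among the other WT libraries, and the groups did not overlap. The ratio was formed after the values were seen and carries no test.

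**Figure D5:**
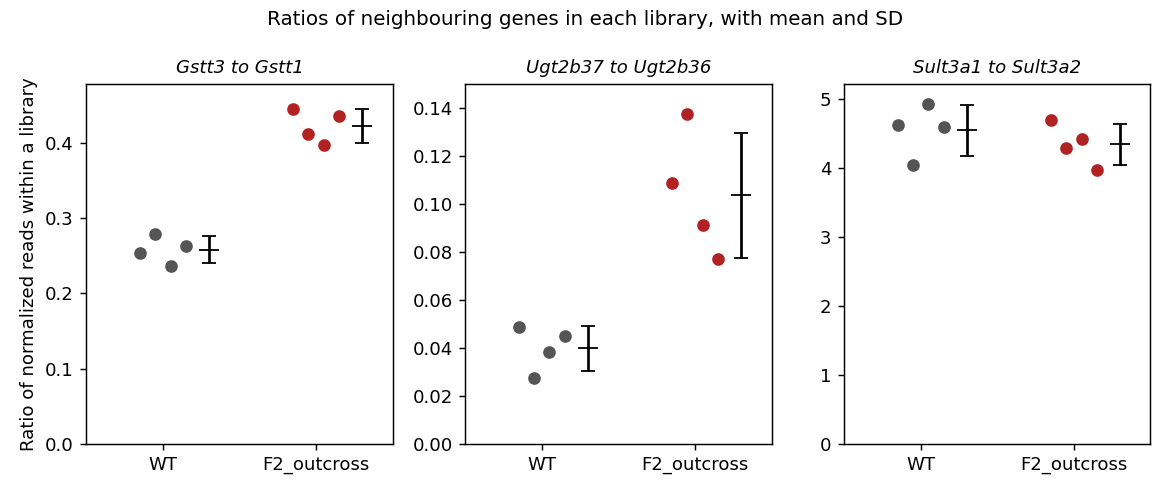
Ratio of normalized reads of neighbouring genes within each library (points) with mean and SD (bars) for Gstt3 to Gstt1, Ugt2b37 to Ugt2b36 and Sult3a1 to Sult3a2, chosen after their values were seen. The first ratio is 0.237 to 0.280 in WT and 0.397 to 0.446 in F2_outcross, whereas the third is 3.97 to 4.93 over both groups.

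In the other glutathione transferases the groups overlapped. Gstp3 had 31350, 47565, 28533 and 27245 reads in WT and 30034, 31804, 28921 and 29959 in F2_outcross. Apart from WT replicate 2 the libraries lay close together, and the log2 fold change was -0.12 ± 0.17 (limma adjusted p = 0.727). Gstm1 showed the same high library, with 26586, 38783, 28633 and 26198 in WT and 26927, 31404, 23490 and 28704 in F2_outcross (log2 fold change -0.11 ± 0.16, limma adjusted p = 0.729). WT replicate 2 was the highest of the 8 libraries in 10 of the 19 cytosolic transferases and the lowest in 6 of the 17 glucuronosyltransferases. Over all genes it was the highest library in 18.2% and the lowest in 19.0%.

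Among the alpha class, Gsta3, the most abundant, had 34742, 44538, 31037 and 35482 reads in WT and 38077, 48275, 44506 and 43522 in F2_outcross (log2 fold change 0.27 ± 0.15, limma adjusted p = 0.333). WT replicate 2 again lay within the F2_outcross range. Gstm2 had 1573 ± 105 reads in WT and 1799 ± 235 in F2_outcross, and Gstp1 had 2613 ± 187 and 2326 ± 283 (limma adjusted p = 0.354 and 0.393). The transcripts of Gstp1 and Gstp2 are 94.2% identical, so the split of reads between them is uncertain. Gstk1, the kappa-class enzyme of mitochondria and peroxisomes, had 8026 ± 1707 and 8241 ± 721 (adjusted p = 0.855). Gsto1, an omega-class thioltransferase, had 2161 ± 229 and 2048 ± 517 (adjusted p = 0.743). The differences in Gsta3 and Gstp1 exceeded the SD of both groups without passing the test, and the others were within the SD of at least 1 group.

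Neither microsomal member passed the test. Mgst1 had 75934, 55004, 60588 and 67281 reads in WT and 62647, 71243, 57463 and 68136 in F2_outcross (log2 fold change 0.01 ± 0.16, limma adjusted p = 0.980, 95% interval of -0.33 to 0.35). Mgst3, known as a peroxidase and leukotriene C4 synthase, had 569 ± 159 and 513 ± 136 (limma adjusted p = 0.723). Its log2 fold change was -0.15 with a wider 95% interval, -0.61 to 0.31. The groups overlapped in both genes.

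At the edge of the filter, Ugt1a7c reached 10 normalized reads in 5 libraries, with 11.7, 8.08, 20.9 and 11.7 in WT and 13.2, 7.67, 19.9 and 8.77 in F2_outcross, and Gsto2 and Ugt2b38 did so in 6. Just outside, Gsta1 reached it in 3 libraries, with 4.67, 4.04, 6.26 and 9.36 in WT and 15.8, 11.5, 11.3 and 6.82 in F2_outcross, and Ugt1a2 in 2. The other 6 symbols outside were Ugt1a8, Gsta5, Mgst2, Sult2b1, Sult4a1 and Gstt4, each with at most 1 library at that level. The remaining members not described by name had overlapping groups and an unadjusted p above 0.05. Spread within groups was larger among members than among all genes, with median coefficients of variation of 19.3% in WT and 15.3% in F2_outcross against 14.5% and 13.5%.

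The supply of conjugating groups was read from companion lists. Of 13 tested genes of glutathione supply and use, 0 were higher and 2 were lower in F2_outcross, with a median log2 fold change of -0.16. Gclc, the catalytic subunit of the rate-limiting enzyme of glutathione synthesis, had 7292, 7361, 7507 and 7777 reads in WT and 5313, 5444, 4770 and 6163 in F2_outcross. It fell by 0.47 ± 0.10 on the log2 scale (limma adjusted p = 0.0334) with no overlap, and passed in 2 of the 8 fits that left out a library. Ggct, which breaks down gamma-glutamyl dipeptides, had 234, 259, 170 and 240 in WT and 157, 149, 124 and 138 in F2_outcross. It fell by 0.65 ± 0.16 (limma adjusted p = 0.0481), again without overlap, and passed in 1 of those 8 fits. Without WT replicate 2 the list held 1 gene higher and 2 lower, and Ggct was not among them (adjusted p = 0.0519).

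Other supply and transport genes did not pass with all libraries. Of 7 genes of UDP-glucuronic acid supply and reversal 0 passed, the nearest being Slc35d2, a nucleotide sugar transporter (log2 fold change -0.49 ± 0.13, limma adjusted p = 0.0639), and Gusb, the beta-glucuronidase (0.40 ± 0.13, adjusted p = 0.115). Of 10 genes of PAPS supply and sulfatases 0 passed, the nearest being the PAPS transporter Slc35b2 (-0.42 ± 0.12, limma adjusted p = 0.0871) and the PAPS synthase Papss1 (-0.49 ± 0.16, adjusted p = 0.110, and 0.0316 without WT replicate 2). Papss1 passed in no other alternative fit. Of 7 transporters that export conjugates 0 passed, the nearest being Abcc4 (-0.46 ± 0.17, limma adjusted p = 0.165) and Abcg2 (-0.21 ± 0.09, adjusted p = 0.198). Of 8 related enzymes outside the symbol rule 0 passed, the nearest being Hpgds, the haematopoietic prostaglandin D synthase (-0.62 ± 0.30, limma adjusted p = 0.271), and Gstcd (-0.30 ± 0.16, adjusted p = 0.304).

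Among the regulators, Nr1i2, which encodes the xenobiotic receptor PXR, had 2092, 2063, 2171 and 2131 reads in WT and 3263, 3491, 2731 and 3656 in F2_outcross. The WT libraries were nearly identical and all lay below the F2_outcross libraries. Nr1i2 rose by 0.63 ± 0.11 on the log2 scale (limma adjusted p = 0.0121) and passed in all 8 fits that left out a library. It was the only gene of the 15 tested in the list of xenobiotic receptors and their P450 targets to pass. The next was Arnt, the partner of AHR (0.39 ± 0.10, limma adjusted p = 0.0639, and 0.0473 without WT replicate 2). Arnt passed in no other alternative fit. In the list of NRF2 and its targets 1 of 14 genes rose, Mafg, a DNA-binding partner of NRF2 (0.76 ± 0.15, limma adjusted p = 0.0259, passing in 4 of the 8 fits), and 1 fell, Gclc.

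Markers of other cells and of lobule zones were set beside these values. Of 11 periportal markers 3 rose (Sds, Gls2 and Asl), and their summed reads were 253760 to 328710 in WT and 343460 to 415810 in F2_outcross. Without WT replicate 2, 5 of them passed as higher. Of 11 pericentral markers 2 rose (Slc1a2 and Tbx3), with sums of 251870 to 297230 and 203630 to 292090, and 2 passed without WT replicate 2. Of 5 bile duct markers tested 1 rose, Spp1, which encodes the secreted protein osteopontin (log2 fold change 1.08 ± 0.21, limma adjusted p = 0.0247), and the sums were 631 to 833 in WT and 811 to 1008 in F2_outcross.

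Markers of blood and immune cells had log2 fold changes below 0 throughout. Of 8 Kupffer cell and macrophage markers 0 passed, with sums of 14673 to 33272 in WT and 12535 to 17889 in F2_outcross. Without WT replicate 2, which had the lowest WT sum, 7 of the 8 passed as lower, with a median log2 fold change of -0.83. Leaving out the lowest WT library raises the WT mean, and 7.46% of all genes passed in that fit. Of these 7, Marco and Cd5l passed in 2 of the 8 fits that left out a library, and the others in that fit alone. Of 8 markers of B and T cells 0 passed, with sums of 195 to 564 in WT and 108 to 204 in F2_outcross. Without WT replicate 2, again the lowest WT sum, 4 passed as lower, with a median of -1.45. They passed in no other fit that left out a library. Of 5 neutrophil markers 1 fell, S100a8 (log2 fold change -1.67 ± 0.35, limma adjusted p = 0.0313), with sums of 219 to 657 and 153 to 204. Without WT replicate 2, 3 passed as lower. S100a8 passed in 2 of the 8 fits that left out a library, and S100a9 and Retnlg in 1. Of 5 red cell markers 0 passed with or without that library, with sums of 9871 to 24292 and 6450 to 17001. Of 8 endothelial, 8 stellate and 10 hepatocyte markers 0 passed with or without it, as was the case for 2 adipocyte and 5 pancreas acinar markers. The adipocyte markers Adipoq, Plin1 and Lep did not pass the filter. They were highest in F2_outcross replicate 3, at 39.9, 26.0 and 16.5 reads. Cidec was higher in F2_outcross without overlap. The acinar marker Pnlip ran from 3.90 reads in F2_outcross replicate 4 to 297.5 in WT replicate 1. These markers were thus uneven across libraries. No marker on any of these lists was at 0 in every library. Their part in the differences of Ugt2b37, Gclc, Ggct, Mafg and Nr1i2 was not tested.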

How the data were processed

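Liver RNA was isolated with a Qiagen RNeasy Lipid Tissue kit and made into strand-specific libraries (labels' protocols). Per the submitters' processing notes, cutadapt, HISAT2, DESeq2 and build GRCm38 were used. The sources used here do not give the read counter, strand setting or annotation. The deposited table holds log2 values, which the authors made from normalized counts plus 0.1 (lowest value -3.32). Returned to the linear scale, 100% of values lay within 0.001 reads of whole reads. Of 25069 lines 395 had no symbol and were left out; they held 0.611% to 1.22% of a library's reads. Replicate numbers were given here in accession order, name a library only and pair no samples. No libraries were copies of each other (chi-square per degree of freedom at least 35.9). One read was worth 0.779 to 1.04 normalized reads.

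The plan assumed linear values, so the log2 values were converted first and analysed as log2(normalized reads + 1), which understates fold changes of low genes. Genes reaching 10 normalized reads in 4 or more libraries were tested with limma 3.58.1 in R 4.3.3 (eBayes with trend, two-sided, Benjamini-Hochberg adjustment over 14390 genes, threshold 0.05), with group as the only term, after a check on simulated data. Every adjusted p is from that fit unless a setting is named. Positions and exonic lengths are from GENCODE on GRCm38, and transcripts were compared with BLAST 2.17.0. Members, gene lists and tests were chosen with earlier results of these data known. Genes were named by a rule: members past the test or without overlap, the most abundant member and the one with the smallest p in each subclass, members at the edge of the filter, and in each companion list other than the cell type markers the genes past the test or with the 2 smallest p. Ugt2b1, Ugt2b35, Ugt2b5, Sult1c2, Sult1e1, Sult2a1, Sult2a2, Sult2a5, Sult3a2 and the cell type markers past the test were added after their values were seen. Alternatives were pseudocounts of 0.5 and 5, no filter, a mean of at least 50, upper quartile, quantile and total-read scaling, limma voom on recovered reads, robust moderation and leaving out each library; the values as deposited were added later.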

Additional observations from a re-analysis of the deposited data

Results flagged for a closer look

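In each group of 4 libraries, the gap between an extreme library and its nearest neighbour was divided by the group's range. Over 108 groups, 4 gave a ratio above Dixon's 95% critical value, which chance passes in about 1 of 20 groups. Gstm4 had 1835 normalized reads in WT replicate 2 against 1041 to 1124 in the other WT libraries (ratio 0.895). Gstm7 had 3356 in WT replicate 2 against 2140 to 2326 (ratio 0.848). Ugt1a10 had 65.7 in WT replicate 2 against 40.5 to 42.1 (ratio 0.935). Gstp1 had 2334 in WT replicate 4 against 2689 to 2733 (ratio 0.888).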

How the results depend on the processing

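The number of members past the threshold was 1 under each alternative in pseudocount, filter, scaling and test, though with robust moderation it was Sult5a1 in place of Ugt2b37. Leaving out a library moved it between 0 and 4: it was 0 without WT replicate 3 or F2_outcross replicate 2, 2 without F2_outcross replicate 3 or 4, and 4 without WT replicate 2 (Ugt2b37, Sult5a1, Gstt3 and Ugt1a5; 7.46% of all genes passed there). Over all genes the count of 383 ran from 111 without F2_outcross replicate 2 to 1073 without WT replicate 2, and from 300 to 417 under the other alternatives. Class total ratios moved by less than the spread between libraries, and leaving out a library gave 0.914 to 1.07 for the cytosolic glutathione transferases. The cause was not tested. No paired analysis was possible because the labels carry no replicate numbers: those used here were assigned in accession order. Genes near 10 reads, such as Ugt1a7c and Ugt2b38, rest on few reads, and intervals cover these 4 animals per group only.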
